A study of Mus musculus with 5 samples.

Results

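Expression of 32 genes that handle unfolded protein was followed in mouse neutrophils. The rule lists them by name and uses no measured value, and all 32 were found among the 32285 genes of the count tables. They were treated as 3 classes. The first held 15 genes of protein folding in the endoplasmic reticulum (ER), the second 6 genes of the integrated stress response, and the third 11 cytosolic and mitochondrial heat shock genes. Neutrophils had been sorted from bone marrow, blood and lung of female wild-type C57BL/6J mice in 3 conditions. Mice were naive, bore tumours of the mammary carcinoma line AT3, or bore tumours of AT3-gcsf, a derivative whose name points to the growth factor G-CSF. Each condition was 1 droplet (10x Chromium, 3′ end) library in 1 lane, so condition and lane cannot be told apart, no spread between mice could be measured and no p-value is given. The sources used here do not give ages, the number of mice pooled or whether the tumour lines were clones. Each library held 3 hashtagged populations, named below by tag number only, because the labels do not say which tissue a tag marks; a number used in several libraries need not mark one tissue.

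An unfolded protein load in the ER is sensed by PERK, IRE1 and ATF6. IRE1 splices the mRNA of Xbp1 and ATF6 is cut to an active factor, and both act on genes of chaperones and of ER-associated degradation; splicing itself cannot be read from 3′ counts. PERK and other kinases phosphorylate the initiation factor eIF2 alpha, which slows translation and lets Atf4 be made; Atf4 acts on Ddit3 (CHOP), Asns, Chac1 and Trib3, and Ppp1r15a (GADD34) leads a phosphatase back to eIF2 alpha. Cytosolic damage is met by heat shock factor 1, which acts on Hspa1a, Hspa1b, Dnajb1, Hsph1 and Bag3. Neutrophils fill their granules through the ER early in bone marrow maturation and hold little ER later.

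The control elements known for these classes were looked for in the start-site windows of the members. Windows with the ER stress element and the amino acid response element are shown because members that carry the same element differed in level. The elements printed for Herpud1 and Ppp1r15a were found in no other member, and these windows and that of Hspe1 are shown as examples. RefSeq windows (GRCm38.p6) of 300 bases, 250 before and 50 after a start, were at hand for 28 members. Each sequence is written 5′ to 3′ on the strand of its gene, with the matched element in capitals.
Hspa5: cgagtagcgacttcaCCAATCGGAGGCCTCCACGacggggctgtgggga
Canx: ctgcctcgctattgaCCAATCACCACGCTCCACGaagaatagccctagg
Hsp90b1, far element: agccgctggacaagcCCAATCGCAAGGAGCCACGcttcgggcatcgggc
Hsp90b1, near element: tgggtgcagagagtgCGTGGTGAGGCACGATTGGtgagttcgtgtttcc
Herpud1: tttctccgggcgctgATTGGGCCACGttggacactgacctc
Asns: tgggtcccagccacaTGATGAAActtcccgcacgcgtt
Chac1: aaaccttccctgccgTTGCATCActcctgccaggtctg
Ppp1r15a: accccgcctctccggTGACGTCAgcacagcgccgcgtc
Hspe1: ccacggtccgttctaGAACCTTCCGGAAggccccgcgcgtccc

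The windows lie at chr2:34772010-34772058 (Hspa5, plus strand), chr11:50325785-50325833 (Canx, minus strand), chr10:86705623-86705671 and chr10:86705518-86705566 (Hsp90b1, minus strand), and chr8:94386362-94386402 (Herpud1, plus strand). Those of the other classes lie at chr6:7693210-7693247 (Asns, minus strand), chr2:119351034-119351071 (Chac1, plus strand), chr7:45526258-45526295 (Ppp1r15a, minus strand) and chr1:55088049-55088091 (Hspe1, plus strand). The ER stress element (CCAAT, 9 bases of any kind, then CCACG; both strands were searched for every element) was found in 7 of 14 ER members with a window (Hspa5, Calr, Canx, Pdia6, Hsp90b1, Creld2 and Syvn1), in 0 of the other members and in 0.119% of 32851 promoter windows. Its second form (ATTGG, 1 base, CCACG) was in Herpud1 and in 0.0365% of windows. The amino acid response element, TGATGNAA, was in 3 of 6 integrated stress members (Trib3, Asns and Chac1), in Herpud1, and in 3.97% of windows. The cAMP response element, TGACGTCA, was in Ppp1r15a and 1.79% of windows. The heat shock element (GAA, 2 bases, TTC, 2 bases, GAA) was in 3 of 8 heat shock members with a window, Hspe1, Hspd1 and Hsph1, and in 0.603% of windows. Hspe1 and Hspd1 are neighbours read in opposite directions and share the same bases, in which 2 matches overlap. The letters TGACGTGG, the unfolded protein response element, were in 0 members and in 0.676% of windows. A match is a string of letters, not a measured binding site.

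Counts of UMIs (unique molecular identifiers) were summed over cells and scaled by the total of each sum to CPM, with exact 95% Poisson intervals that cover counting error only. The naive, AT3 and AT3-gcsf sums held 6887, 7279 and 9905 cells and 26259961, 49664070 and 88408425 UMIs, and the median cell had 2787, 4896 and 7697 UMIs. Cells were kept when markers of neutrophils were at least 5% of UMIs and markers of other cell types under 1%. This gate left out 489, 336 and 259 cells, and 348, 300 and 182 cells lay near it, at 4 to 6% neutrophil markers. The median neutrophil marker share ran from 14.9% to 46.3% over the 9 populations. Libraries shared 44 (naive and AT3), 20 (naive and AT3-gcsf) and 20 (AT3 and AT3-gcsf) cell barcodes. A difference below is a log2 ratio after adding 5 CPM to both values, which understates changes of low genes, and a member is counted as higher or lower at a ratio of at least 2-fold and at least 20 CPM in the higher sum. UMIs are not scaled by length, and levels of different genes are set side by side only as counts of 3′ ends.

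The neutrophils compared held ER chaperone and cytosolic heat shock transcripts, but little Hspa1a, Hspa1b, Hsph1 or Bag3. Of the inducible heat shock members, Dnajb1 (14.8 to 56.2 CPM over the populations) and Hsp90aa1 (24.6 to 95.2 CPM) were present. Of 32 members, 19 reached 20 CPM in at least 1 library sum, 20 in at least 1 population, and 12 in none. By 3′ end counts, Hspa5 (BiP, the ER Hsp70) led the ER class in the naive and AT3 sums (218 and 148 CPM), and Xbp1 led it in AT3-gcsf (189 against 117 CPM of Hspa5). Ppp1r15a led the integrated stress class and Hspa8 (Hsc70, the constitutive cytosolic Hsp70) the heat shock class in all 3 sums. The 12 members under 20 CPM everywhere were Pdia4, Sdf2l1, Manf, Creld2, Syvn1, Trib3, Hspa1a, Hspa1b, Hspe1, Hspd1, Hsph1 and Bag3. Hsph1 (Hsp110) and Bag3, a co-chaperone of Hsp70, did not pass 0.441 CPM in any population. Hspa1a and Hspa1b, near-identical copies whose reads cannot be told apart with certainty, did not pass 6.19 and 6.80 CPM. Trib3, an inhibitor of Atf4 output, was at 0.705 to 2.16 CPM.

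**Figure D1:**
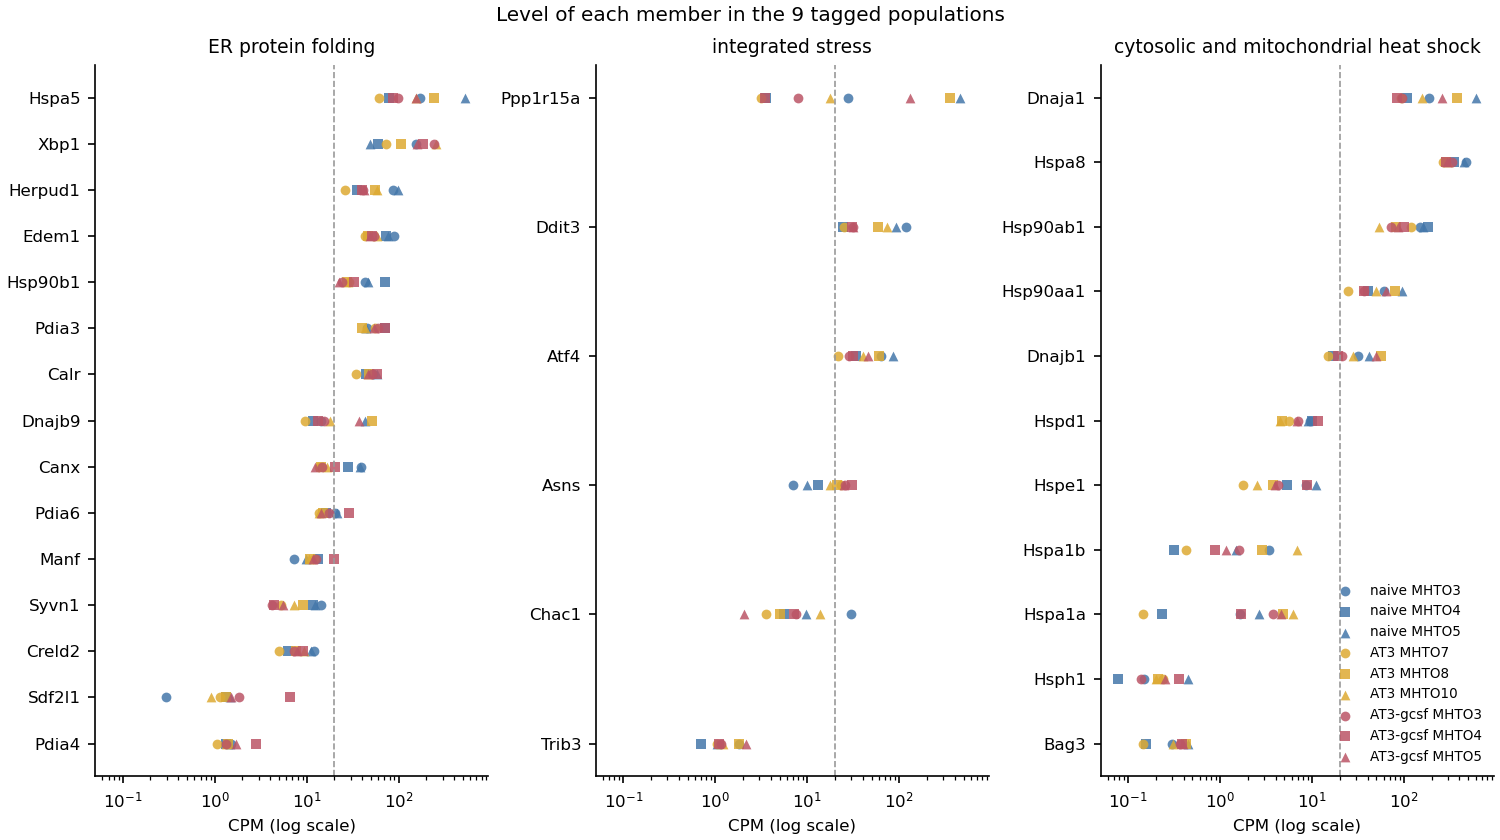
Level of the 32 members in each of the 9 tagged populations (CPM, log axis), by class; colour marks the library, shape the population, and the dashed line 20 CPM. Ppp1r15a spans 3.15 to 462 CPM, whereas Hspa8 stays between 263 and 468.

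Within each library, 1 population carried more of the same few transcripts: Ppp1r15a, the J-domain co-chaperone Dnaja1 and the ER J-protein Dnajb9. Ppp1r15a (chr7:45522916-45526268, minus strand) was at 462 CPM in naive MHTO5, against 28.0 in MHTO3 and 3.53 in MHTO4. Its level was 3.15 CPM in AT3 MHTO7, 359.6 in MHTO8 and 17.9 in MHTO10. The AT3-gcsf populations had 7.95 (MHTO3), 3.45 (MHTO4) and 131 CPM (MHTO5). One population of each library thus stood far above its 2 companions, and the intervals of the 3 high populations (446 to 478, 351 to 368 and 128 to 135 CPM) do not meet those of any other. The log2 ratio to the next population was 3.82, 3.996 and 3.398.

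Dnaja1 (chr4:40722150-40737149, plus strand) was at 186, 108 and 603 CPM in the naive populations, listed in the order of their tag numbers as in all lists below. The AT3 values were 93.5, 376 and 155 CPM, and the AT3-gcsf values 95.5, 83.0 and 260.1 CPM. The high populations were those high in Ppp1r15a, with log2 ratios to the next of 1.67, 1.25 and 1.40. Dnajb9 (chr12:44205559-44210326, minus strand), which brings clients to Hspa5, was lower in count: 14.5, 11.7 and 43.1 CPM in naive, 9.68, 50.7 and 17.8 in AT3, and 15.2, 13.4 and 37.3 in AT3-gcsf. Its log2 ratios to the next population were 1.30, 1.29 and 1.06. Dnajb9 reached 20 CPM in these 3 high populations only, so it was measured through them.

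Hspa5 (chr2:34771970-34777547, plus strand) was 2-fold above both companions in 1 population only on this measure. It was at 169.8, 77.8 and 528 CPM in the naive populations, a log2 ratio of 1.61 for MHTO5 over MHTO3. In AT3 it was at 60.5, 242 and 153 CPM and in AT3-gcsf at 99.3, 87.6 and 154 CPM. The same populations were the highest, at less than 2-fold over the next. Dnajb1, the Hsp40 partner of Hspa8 and Hspa1a, was at 31.8, 16.9 and 41.6 CPM in naive, 14.8, 56.2 and 27.6 in AT3 and 21.0, 19.1 and 49.3 in AT3-gcsf. Only in AT3-gcsf MHTO5 was it counted as above both companions (log2 ratio 1.06); TMM and median-of-ratios scaling, which align the bulk of genes, also counted it in AT3 MHTO8.

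Xbp1 (chr11:5520659-5525893, plus strand) was highest in other populations. It was at 156 CPM in naive MHTO3 against 59.0 and 48.2 in MHTO4 and MHTO5, and at 255 CPM in AT3 MHTO10 against 72.8 and 105 in MHTO7 and MHTO8. The log2 ratios to the next population, 1.33 and 1.23, fell under 2-fold with TMM scaling (0.84 and 0.93). In AT3-gcsf its 3 populations were at 244, 186 and 159 CPM, within 2-fold of each other. Chac1, a glutathione-degrading enzyme under Atf4, stood above both companions in naive MHTO3 (30.1 CPM against 5.57 and 9.56; log2 ratio 1.27, or 0.95 with TMM scaling). Elsewhere Chac1 was at 2.07 to 13.6 CPM.

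**Figure D2:**
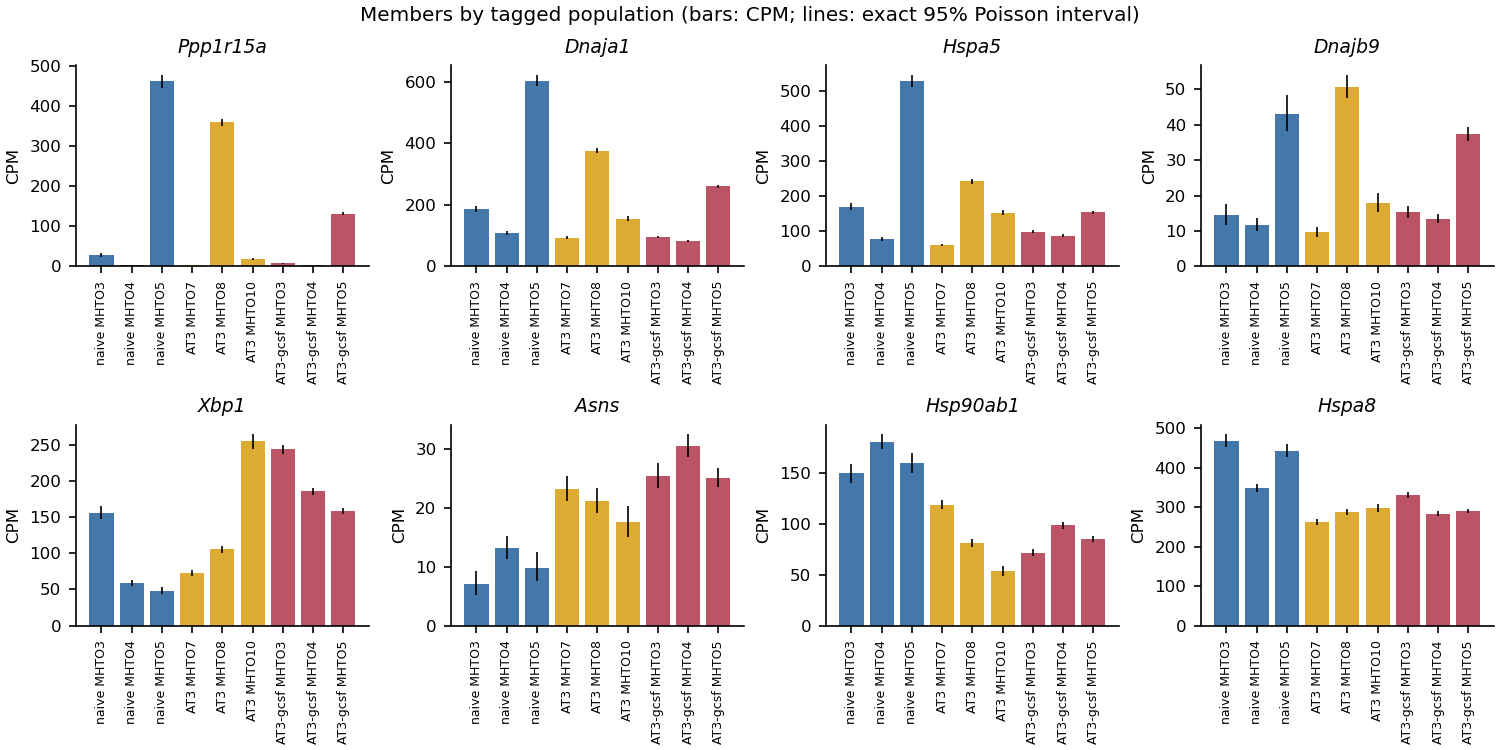
CPM (bars from 0) with exact 95% Poisson intervals (lines) of 8 members in the 9 populations; blue is naive, yellow AT3 and red AT3-gcsf. Ppp1r15a, Dnaja1, Hspa5 and Dnajb9 are highest in naive MHTO5, AT3 MHTO8 and AT3-gcsf MHTO5 of their libraries; Xbp1 is not.

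Of 19 measured members, 4 were counted in naive MHTO5 (8.80% of all measured genes were) and 2 in naive MHTO3 (4.57%). No member was counted in naive MHTO4, where 4.23% of genes were. In AT3, 3 of 17 were counted in MHTO8 (6.14% of genes), 1 in MHTO10 (2.74%) and 0 in MHTO7 (2.40%). In AT3-gcsf, 4 of 19 were counted in MHTO5 (5.27%) and 0 in MHTO3 and MHTO4 (0.0281% and 0.140%). Some of these members reached 20 CPM only in the population where they were counted, and so were measured through it. They were Dnajb9 in each library, Ppp1r15a in AT3 and AT3-gcsf, and Chac1 in naive. Members of all 3 classes were among those counted in naive MHTO5, AT3 MHTO8 and AT3-gcsf MHTO5. The other measured members, among them Hspa8, Hsp90ab1, Calr and Pdia3, were not. Atf4 and Hsp90aa1 were also highest in the same 3 populations of their libraries, at less than 2-fold over the next on plain totals.

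Transcripts of 15 immediate-early genes such as Fos, Jun and Egr1, which are made within minutes of a stimulus, moved with these 3 populations. Their summed level was 8875, 1354 and 17121 CPM in the naive populations, 1492, 14018 and 6402.5 in AT3 and 4104, 2512 and 8768 in AT3-gcsf. It was highest in naive MHTO5, AT3 MHTO8 and AT3-gcsf MHTO5. The 7 endothelial or stromal markers, all with UMIs, were highest in the same 3 populations at a low level: 3.88, 3.61 and 6.62 CPM in naive, 1.62, 11.0 and 2.74 in AT3 and 0.601, 0.612 and 4.20 in AT3-gcsf. The 10 lung epithelial markers, all with UMIs, were at 229.9, 116 and 213 CPM in naive, 79.4, 119 and 145 in AT3 and 31.0, 24.5 and 30.9 in AT3-gcsf, highest in other populations except for near-equal values in AT3-gcsf. The 7 erythroid or platelet genes were at 1157, 289 and 147, then 26.8, 713 and 7.91, then 0.139, 0.386 and 0.644 CPM, and so were highest in AT3 MHTO8 and in AT3-gcsf MHTO5 but not in naive MHTO5. The 12 secondary granule genes were at 10971, 91455 and 7118, then 74066, 24393 and 19223, then 26291, 29764 and 22724 CPM, lowest in naive MHTO5 and AT3-gcsf MHTO5. The part of these transcripts in the members' differences was not tested.

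The share of cells with a UMI was compared after every cell had been thinned to 1000 UMIs, which left out 2 to 77 shallower cells a population. A UMI of Ppp1r15a was then found in 34.2% of naive MHTO5 cells (95% Clopper-Pearson interval 32.2 to 36.3), 33.2% of AT3 MHTO8 cells (31.5 to 35.0) and 14.6% of AT3-gcsf MHTO5 cells (13.5 to 15.8). The unthinned shares were 64.6%, 72.0% and 58.1%. In the 6 other populations the thinned share was 0.309% to 2.86%. No cell type without Ppp1r15a was at hand to give the share from free RNA, so the lowest of these stands beside it. If UMIs were spread evenly over cells, 38.9%, 39.5% and 16.5% of cells in the 3 high populations would have shown one. Dnaja1 was seen in 40.8%, 30.0% and 22.7% of the thinned cells of the same populations, and Hspa5 in 39.5%, 24.9% and 17.1%.

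Cells of each population were also ordered by their immediate-early share and the highest and lowest 1 in 3 were compared, a division chosen after the data were seen. These are ends of a continuous share, not cell types. In AT3 MHTO8 the highest part had 855 CPM of Ppp1r15a against 129 in the lowest, and 418 CPM of Hspa5 against 145. In AT3-gcsf MHTO5 the values were 309 against 52.2 for Ppp1r15a and 271 against 102 for Hspa5. In naive MHTO5 they were closer, 585 against 313 and 616 against 436. Ddit3 (CHOP), a death-promoting factor, differed as well: 122 against 30.0 CPM in AT3 MHTO8 and 59.4 against 18.5 in AT3-gcsf MHTO5, but 107 against 82.0 in naive MHTO5.

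Cells with a high share were shallower, with a median of 3660 UMIs against 8675 in AT3 MHTO8 and 5635 against 12661 in AT3-gcsf MHTO5. With all cells thinned to 1000 UMIs first, Ppp1r15a in AT3 MHTO8 was at 839 against 187.5 CPM (log2 ratio 2.13) and the log2 ratio of Hspa5 was 1.004. In AT3-gcsf MHTO5 the thinned log2 ratios were 2.03 for Ppp1r15a and 1.14 for Hspa5, and in naive MHTO5 0.72 and 0.38. In the thinned cells, 6 of 19 measured members were at least 2-fold higher in the highest part of AT3 MHTO8, where 14.9% of all genes were: Hspa5, Pdia6, Hsp90b1, Ddit3, Ppp1r15a and Hsp90aa1. In AT3-gcsf MHTO5, Hspa5, Ddit3 and Ppp1r15a were, 3 of 18 (11.9% of genes), and in naive MHTO5 0 of 18 (1.18%).

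The thinned counts in the other populations were 1 of 18 in naive MHTO3 (0.918% of genes), 4 of 15 in naive MHTO4 (15.4%), 2 of 14 in AT3 MHTO7 (19.8%) and 3 of 19 in AT3 MHTO10 (4.70%). They were 1 of 19 in AT3-gcsf MHTO3 (8.91%) and 3 of 20 in AT3-gcsf MHTO4 (8.66%). Without thinning, the counts were 8 of 19 in AT3 MHTO8 (19.0% of genes), 4 of 19 in AT3-gcsf MHTO5 (11.9%) and 0 of 18 in naive MHTO5 (0.459%). Unthinned counts elsewhere were 1 of 18 in naive MHTO3 (0.504%), 2 of 15 in naive MHTO4 (21.8%), 3 of 15 in AT3 MHTO7 (26.1%), 6 of 19 in AT3 MHTO10 (10.5%), 4 of 19 in AT3-gcsf MHTO3 (15.7%) and 6 of 19 in AT3-gcsf MHTO4 (24.0%). Thinning thus changed which members passed: in AT3 MHTO8, 4 passed both ways, and Atf4, Dnajb9, Herpud1 and Xbp1 passed only without it. Ddit3 passed in 7 of the 9 populations without thinning and in 4 with it. Ppp1r15a passed both ways in naive MHTO3, AT3 MHTO8 and AT3-gcsf MHTO5. Hsp90ab1, the constitutive cytosolic Hsp90, went the other way in the tumour-bearing libraries: 63.6 against 97.9 CPM in AT3 MHTO8 and 68.1 against 99.6 in AT3-gcsf MHTO5 without thinning, and log2 ratios of -0.40 and -0.23 with it.

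**Figure D3:**
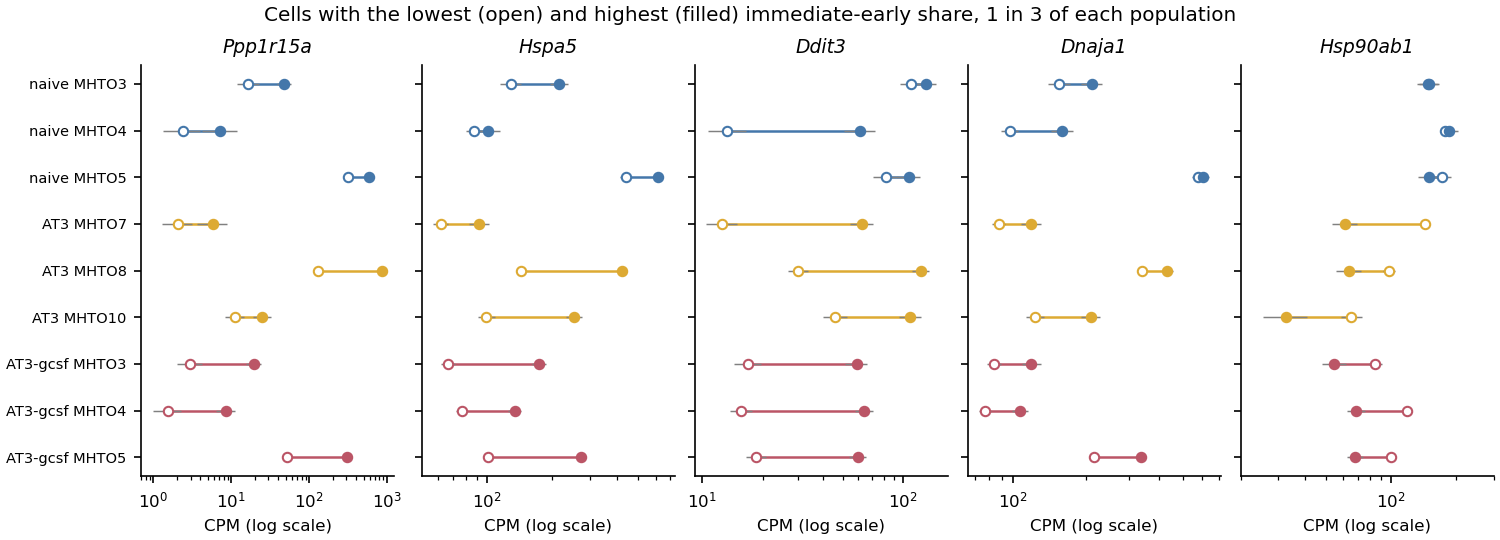
CPM (log axis) of 5 members in the cells of each population with the lowest (open) and highest (filled) immediate-early share; grey lines are exact 95% Poisson intervals. Ppp1r15a and Hspa5 are higher in the filled points, and Hsp90ab1 is lower in those of AT3 and AT3-gcsf.

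Between conditions, few members passed 2-fold. None of 18 measured members did so in AT3 over naive, where 2.15% of 3909 genes were counted as higher and 6.45% as lower. In AT3-gcsf over naive, Xbp1 and Asns were higher and Ppp1r15a lower of 19 measured (5.42% and 21.2% of 4076 genes). In AT3-gcsf over AT3, Ppp1r15a alone was lower of 18 measured, and 0 were higher (2.55% of 3526 genes were lower and 2.50% higher). The median log2 ratio of all genes was -0.35 in AT3 over naive, -0.38 in AT3-gcsf over naive and -0.02 in AT3-gcsf over AT3 on plain totals, and 0.15, 0.27 and 0.08 after TMM scaling. With TMM scaling Xbp1 and Asns were counted as higher in AT3 also (log2 ratios 1.03 and 1.10).

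Xbp1 was at 81.0 (77.6 to 84.6), 121 (118 to 124) and 189 (186 to 192) CPM in the naive, AT3 and AT3-gcsf sums. The log2 ratio to naive was 0.55 in AT3 and 1.17 in AT3-gcsf. All 3 AT3-gcsf populations (159 to 244 CPM) lay above all 3 naive ones (48.2 to 156), as 11.0% of genes did, but the nearest values were 159 and 156. Without the marker gate the AT3-gcsf ratio was 0.99, without naive MHTO4 0.86 and without naive MHTO5 0.99, each under 2-fold. The comparisons with naive share the naive library.

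Asns (asparagine synthetase, chr6:7675169-7693254, minus strand) was at 7.01, 13.2 and 9.85 CPM in the naive populations. It was at 23.2, 21.2 and 17.6 CPM in AT3 and 25.4, 30.6 and 25.1 in AT3-gcsf. By value, the populations of the 3 libraries did not overlap in the order naive, AT3, AT3-gcsf. The Poisson intervals of the nearest populations did overlap at both steps. These were naive MHTO4 (13.2 CPM) and AT3 MHTO10 (17.6), then AT3 MHTO7 (23.2) and AT3-gcsf MHTO5 (25.1). Among members at 20 CPM or more, Asns alone was above in all populations of AT3 over naive, as 3.07% of genes were. Asns alone was also above in all populations of AT3-gcsf over AT3 (13.7%). Under 20 CPM, Hspd1, Hspe1 and Sdf2l1 were also above in all populations of AT3-gcsf over AT3. No member lay below in all populations of AT3-gcsf over AT3, as 9.67% of genes did. Its log2 ratio to naive was 0.74 in AT3 and 1.03 in AT3-gcsf. The second was under 2-fold without the marker gate (0.87), without naive MHTO3 (0.92) and without AT3-gcsf MHTO4 (0.94). Of the other 3 members with the amino acid response element, Trib3 was at 0.705 to 2.16 CPM and Herpud1 at 26.2 to 98.1 CPM over the populations, and Chac1 was at 12.9, 6.10 and 5.19 CPM in the 3 sums.

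Ppp1r15a was at 128 (124 to 133), 141 (138 to 145) and 56.2 (54.7 to 57.8) CPM in the naive, AT3 and AT3-gcsf sums. Its log2 ratio was -1.12 in AT3-gcsf over naive, -0.55 with TMM scaling, -0.59 with median-of-ratios scaling, and -1.26 in AT3-gcsf over AT3. Single populations set these values: without naive MHTO5 the first was 1.85, and without AT3 MHTO8 the second was 2.25, the opposite direction. Without AT3-gcsf MHTO5 they were -3.70 and -3.83. The first was also under 2-fold without AT3-gcsf MHTO3 (-0.80) or MHTO4 (-0.57), and the second without the same populations (-0.93 and -0.70).

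**Figure D4:**
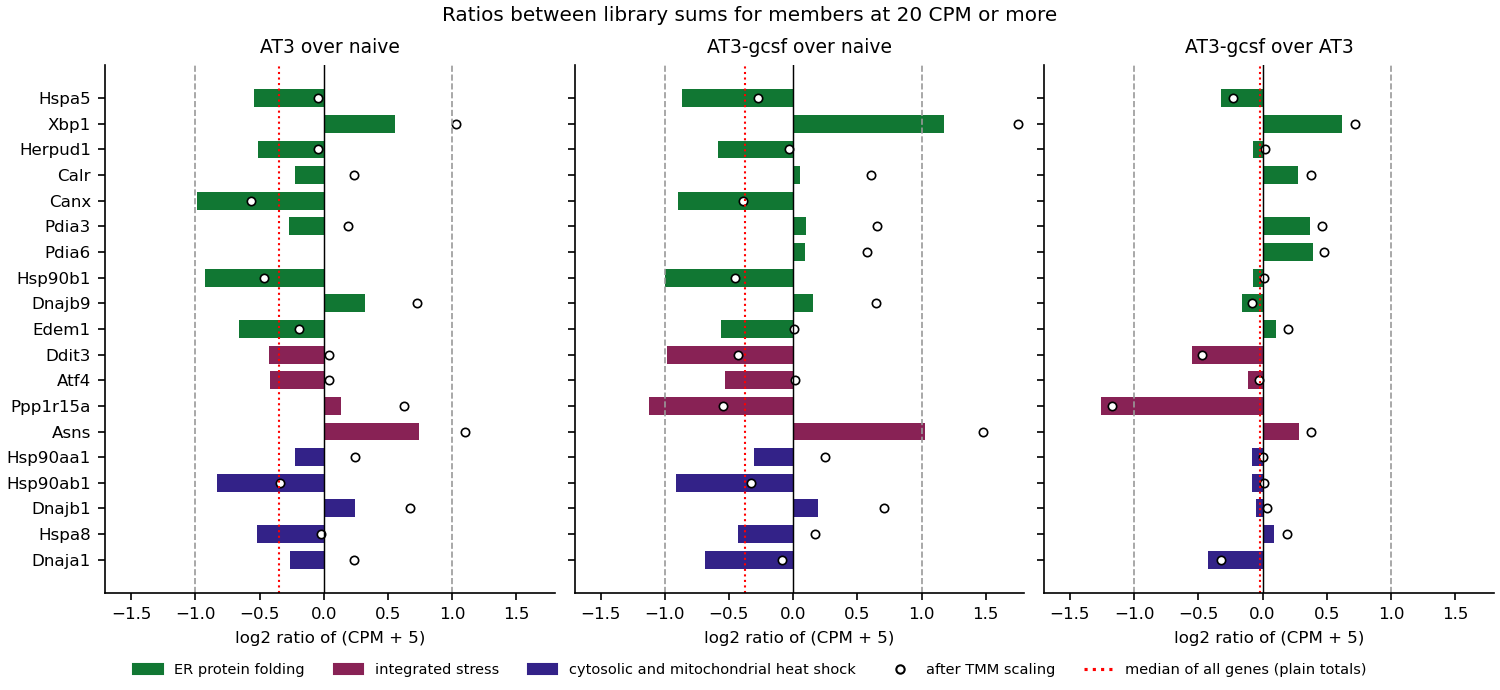
Log2 ratios of library sums after adding 5 CPM for members at 20 CPM or more; bars are coloured by class, open circles show TMM scaling, the dotted line is the median of all genes on plain totals, and dashed lines mark 2-fold. Bars of Xbp1 and Asns pass 2-fold upward and of Ppp1r15a downward in AT3-gcsf over naive.

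Among members at 20 CPM or more in the higher sum, a group of 5 was lower in both tumour-bearing libraries on plain totals. Canx (calnexin, the membrane lectin chaperone), Hsp90b1 (GRP94, the ER Hsp90), Edem1 (a mannosidase-like protein of ER-associated degradation), Hsp90ab1 and Hspa8 lay below naive in all 3 populations of AT3, as 13% of genes did (508 of 3909), and of AT3-gcsf, as 29.9% did. In AT3-gcsf that is 5 of 19 measured members, a share near that of all genes. With sums under 20 CPM, Syvn1 also lay below naive in all populations of both libraries. It was at 11.7 to 14.3 CPM over the naive populations, 5.24 to 9.19 over AT3 and 4.16 to 5.57 over AT3-gcsf. Hspd1, Hspe1 and Pdia6, under 20 CPM in the naive and AT3 sums, lay below naive in all populations of AT3. Calr, Pdia3 and Pdia6 were not lower in AT3-gcsf (log2 ratios 0.06, 0.10 and 0.10). Canx was at 28.5 to 38.5 CPM over the naive populations, 13.6 to 16.5 over AT3 and 12.3 to 20.2 over AT3-gcsf. Hsp90b1 was at 43.0 to 71.9, 27.4 to 29.0 and 22.7 to 32.4 CPM. Hsp90ab1 was at 149.8 to 181, 53.6 to 119 and 71.7 to 98.6 CPM. For all 5 genes of the group the ranges of naive and of each tumour-bearing library stood apart, because the group was taken on that.

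The log2 ratios of AT3 and AT3-gcsf over naive were -0.99 and -0.89 for Canx, -0.92 and -0.996 for Hsp90b1 (just short of 2-fold) and -0.83 and -0.91 for Hsp90ab1. With TMM scaling they were -0.56 and -0.39, -0.47 and -0.45, and -0.34 and -0.33, still below 0. Without the marker gate all 3 passed 2-fold in both comparisons (-1.07 and -1.28 for Canx, -1.06 and -1.49 for Hsp90b1, -1.04 and -1.50 for Hsp90ab1). The gate left out 6.63%, 4.41% and 2.55% of naive, AT3 and AT3-gcsf cells. In naive they had 210, 505 and 1492 CPM of these genes, and ungated ratios include them. In the gated sums, lymphoid markers (141, 33.6 and 12.8 CPM) and lung epithelial markers (170, 108 and 28.7) were highest in naive. Macrophage or monocyte (536, 539 and 316) and endothelial or stromal markers (4.46, 5.42 and 2.06) were highest in AT3. The part of such cells was not tested. With TMM scaling Edem1 and Hspa8 stayed below 0 in AT3 over naive but not in AT3-gcsf over naive. Ratios of -0.66 and -0.56 for Edem1 became -0.19 and 0.01. Those of -0.52 and -0.43 for Hspa8 became -0.02 and 0.17. Hspa8 was at 468, 348 and 443 CPM in the naive populations, 263, 289 and 298 in AT3 and 329.8, 283 and 290.1 in AT3-gcsf. Over the 9 populations Hspa8 spanned 263 to 468 CPM, Dnaja1 83.0 to 603 and Hsp90ab1 53.6 to 181.

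The remaining ER members did not pass 2-fold between library sums. Calr (calreticulin, the soluble lectin chaperone) was at 34.4 to 58.4 CPM and Pdia3, its disulfide isomerase partner, at 39.8 to 71.8 over the 9 populations. The isomerase Pdia6 was at 13.5 to 28.6 CPM. Herpud1, an adaptor of ER-associated degradation, was at 86.8, 34.9 and 98.1 CPM in naive, 26.2, 55.7 and 57.9 in AT3 and 41.0, 40.0 and 42.4 in AT3-gcsf. Syvn1, the ligase of that pathway, reached 14.3 CPM at most, and the secreted factors Manf and Creld2 19.9 and 11.9 CPM. Among carriers of the ER stress element, Hspa5 was highest in naive MHTO5 and Hsp90b1 in naive MHTO4. Canx was highest in naive MHTO3 (38.5 CPM), nearly equal to naive MHTO5 (37.9 CPM). Calr and Pdia6 were highest in AT3-gcsf MHTO4, and Creld2 and Syvn1 in naive MHTO3. For Canx, Calr, Creld2 and Syvn1 the interval of the highest population overlapped that of naive MHTO5.

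In the integrated stress class, Atf4 was at 63.7, 33.9 and 85.4 CPM in naive, 21.4, 60.4 and 39.9 in AT3 and 28.1, 31.1 and 46.2 in AT3-gcsf. Atf4 is controlled mainly in translation, which these counts do not read. Ddit3 was at 118, 24.6 and 93.1 CPM, then 25.4, 59.3 and 74.1, then 31.7, 30.5 and 31.3. The low naive population, MHTO4, and the low AT3 one, MHTO7, are those with most secondary granule transcript; the part of that difference was not tested. The features table has a second, overlapping Ddit3 gene model with 0 UMIs in the compared cells, so reads in both models may be missing from these counts. The log2 ratio of Ddit3 in AT3-gcsf over naive was -0.98, or -0.43 with TMM scaling.

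In the heat shock class, Hsp90aa1, the stress-inducible cytosolic Hsp90, was at 60.7, 40.3 and 95.2 CPM in naive, 24.6, 80.1 and 49.0 in AT3 and 36.2, 36.4 and 63.5 in AT3-gcsf. The mitochondrial chaperonin pair Hspd1 and Hspe1 was at 4.46 to 11.5 and 1.76 to 11.0 CPM. The class medians of the log2 ratio in AT3 over naive were -0.51 for ER, -0.14 for integrated stress and -0.26 for heat shock, beside -0.35 for all genes. In AT3-gcsf over naive they were -0.25, -0.75 and -0.43, beside -0.38. In AT3-gcsf over AT3 they were 0.10, -0.33 and -0.08, beside -0.02. Each rests on 4 to 10 measured members, and members above and below the all-gene median were found in every class. With TMM scaling the AT3 over naive medians were -0.05, 0.33 and 0.24, beside 0.15. Leaving out 1 population at a time, they ran on plain totals from -0.64 to -0.18, -0.80 to 0.29 and -0.74 to 0.20. In AT3-gcsf over naive the ranges were -0.57 to 0.04, -1.28 to 0.38 and -0.67 to 0.00. In AT3-gcsf over AT3 they were 0.02 to 0.36, -0.72 to 0.32 and -0.48 to 0.46.

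Other genes of the same pathways were read from lists set up beside the members. Of 31 other ER pathway genes, 20 were measured in AT3 over naive and in AT3-gcsf over naive; 0 were higher and 1, Eif2ak3 (PERK), was lower in each. Eif2ak3 was at 39.1, 16.6 and 12.8 CPM in the 3 sums (log2 ratios to naive -1.03 and -1.31). Without naive MHTO3 these were under 2-fold (-0.41 and -0.69), as was the first without AT3 MHTO7 (-0.84) or MHTO8 (-0.87). Of 27 other integrated stress genes, 8 and 10 were measured. Slc7a11, the cystine transporter, was lower in both (609, 259 and 165 CPM; -1.22 and -1.85), and Nupr1, a stress-induced chromatin protein, was higher in AT3-gcsf than in naive and AT3 (1.98, 6.62 and 38.4 CPM; 2.64 and 1.90). Slc7a11 was at 2078 CPM in naive MHTO5, the population where Ppp1r15a stood out, against 211 and 35.9 in its companions. The other 2 populations high in Ppp1r15a held most of it in their libraries too. Slc7a11 was at 26.9 CPM in AT3 without MHTO8 and at 11.9 CPM in AT3-gcsf without MHTO5. Without naive MHTO5 the naive value was 96.3 CPM and the log2 ratios turned to 1.38 and 0.75. Without AT3 MHTO7 or MHTO10 the ratio of AT3 to naive was under 2-fold (-0.46 and -0.97).

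Of 33 other heat shock genes, 15 and 16 were measured, 0 were higher and 1 was lower in each, Hspa4l, an Hsp110 relative. Its sums were 69.8, 25.9 and 10.8 CPM (-1.28 and -2.24). Hspa4l too was high in naive MHTO5 (208 CPM against 29.1 and 17.7), and without it the log2 ratios were 0.21 and -0.75. Without AT3 MHTO7 the first was -0.79. Hspa4l also fell to 10.1 CPM in AT3 without MHTO8 and to 6.32 CPM in AT3-gcsf without MHTO5. In AT3-gcsf over AT3, 0 of 18 ER and 0 of 16 heat shock pathway genes passed 2-fold, and 1 of 10 integrated stress genes did, Nupr1.

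The cells left out by the marker gate held more ER and heat shock chaperone transcript than the cells compared. Of the 15 ER members, 13 of 14 measured in naive were at least 2-fold higher in the cells left out than in those compared, as were 12 of 14 in AT3 and 12 of 14 in AT3-gcsf. Of the heat shock members, 10 of 11, 9 of 10 and 11 of 11 were. Among all genes the share was 46.8%, 55.2% and 53.3%. A gene was measured here at 20 CPM in either set of cells. In naive, Pdia4, Pdia6, Sdf2l1, Manf and Creld2 reached it only in the cells left out. So did Hspa1a, Hspa1b, Hspe1, Hspd1, Hsph1 and Bag3. For the lowest of these, reaching 20 CPM in the cells left out already made a 2-fold call, so the counts are not independent support. Hsph1 was at 72.1, 75.4 and 39.9 CPM in the cells left out of naive, AT3 and AT3-gcsf, and at 0.190, 0.221 and 0.260 in the cells compared. Hspe1 was at 314, 229 and 229.8 CPM against 7.62, 2.66 and 5.76, and Hsp90ab1 at 1492, 1330 and 1229 against 168, 91.9 and 86.5. Ddit3 (42.4, 59.3 and 38.8 against 66.2, 47.9 and 31.1) and Dnaja1 (369, 326 and 327 against 256, 213 and 158) differed less. The cells left out had few neutrophil markers or more markers of other types, and were given no name.

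**Figure D5:**
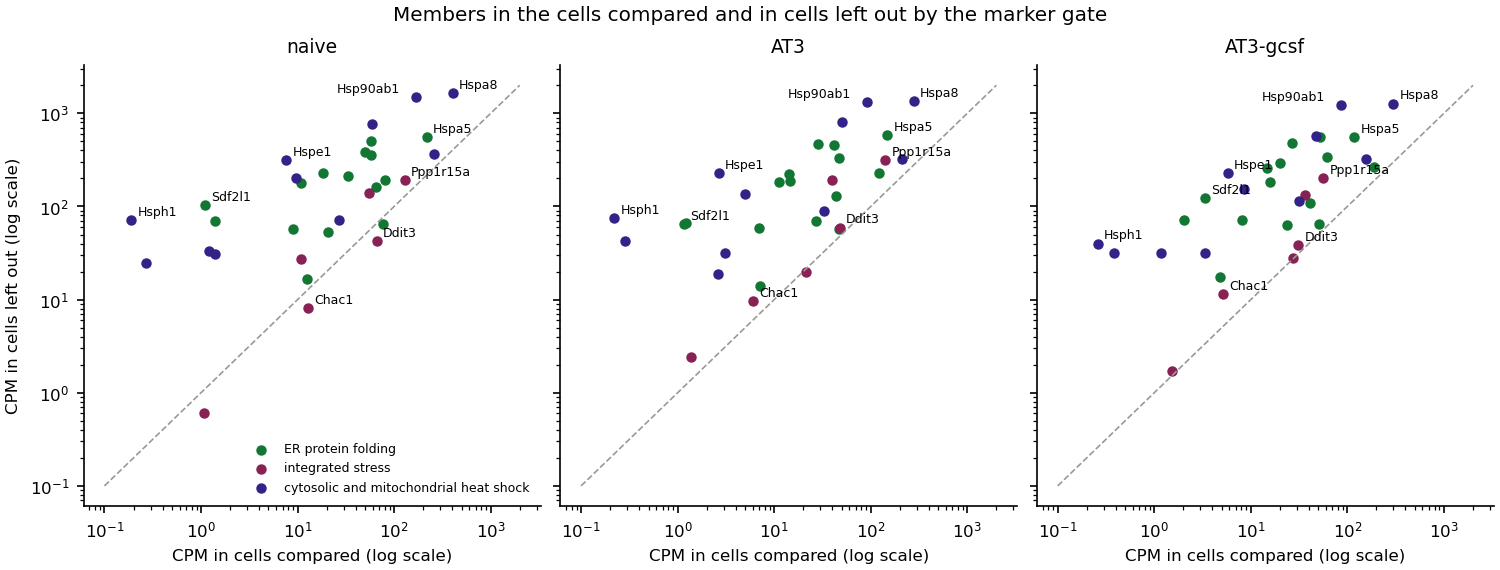
CPM of the 32 members in the cells compared (x, log axis) and in the cells left out by the marker gate (y, log axis) of each library, coloured by class; the dashed line marks equal levels. Most ER and heat shock members lie above the line, with Hsph1 and Sdf2l1 far above it, and Ddit3 lies near it.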

How the data were processed

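The deposited values are raw UMI counts of each gene in each barcode, not normalised. The submitters' processing notes name bcl2fastq 2.20.0.422, Cell Ranger 4.0.0 and the build mm10. Whether the hashtag counts collapse UMIs is not stated. About 24000 cells a lane, 8000 per tag, were loaded, per the labels. Hashtag count files (3, in 2 samples) were joined to the library whose barcodes they tagged (95.7%, 97.4% and 94.1% with a dominant tag, at most 0.672% in other files). Cells needed a top tag of at least 80% and 20 counts, 200 genes and under 10% mitochondrial UMIs. Mixed-tag doublets fall to the tag rule; no other doublet caller was run. The members and lists were chosen with earlier results of these data known. All 32 members are accounted for; values in every population are given for those past 2-fold and the most abundant of each class, and of the other pathway genes at most 3 with the largest ratios past 2-fold in each comparison are named. Further members were given values for their class after theirs were seen, as was the ordering of cells by immediate-early share. Of 17 lists, 16 were matched in full and the primary granule list in 6 of 7. Gene positions are GENCODE vM21 (GRCm38), promoter windows RefSeq. Calls were tested on simulated data. Python 3.11.15, numpy 2.4.6, scipy 1.17.1, pandas 2.3.3, R 4.3.3 and edgeR 4.0.16 (TMM factors) were used. Alternatives were scaling, pseudocount, minimum, gate, tag rule, thinning, weights and leaving out populations.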

Additional observations from a re-analysis of the deposited data

How the results depend on the processing

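The number of members past 2-fold in AT3 over naive, 0 as reported, was 2 with TMM scaling, 2 with median-of-ratios scaling, 1 with totals without the 20 most abundant genes, 2 with a pseudocount of 1 CPM, 5 without the marker gate, 1 with neutrophil markers at 10% or more, 1 with cells thinned to 1000 UMIs and 1 with equal weight of populations. That in AT3-gcsf over naive, 3 as reported, was 6 with a pseudocount of 1 CPM, 7 without the marker gate, 5 without the 1% of cells with most UMIs, 5 with thinned cells and 6 with equal weight. Members above both other populations of naive, 6 as reported, were 10 without the marker gate. Leaving out 1 population at a time gave 1 to 4 members in AT3 over naive, 2 to 7 in AT3-gcsf over naive and 0 to 2 in AT3-gcsf over AT3. Ppp1r15a turned to 1.85 in AT3-gcsf over naive without naive MHTO5 and to 2.25 in AT3-gcsf over AT3 without AT3 MHTO8; leaving out other populations, the ratios went down to -3.70 and -3.83. Leaving out populations was added for the other pathway genes after the data were seen: Slc7a11 ran from -4.27 to 1.38 in AT3 over naive and from -5.18 to 0.75 in AT3-gcsf over naive, and Hspa4l from -2.31 to 0.21 in AT3 over naive. TMM scaling changed the split of all genes from 84 higher and 252 lower to 175 and 42 in AT3 over naive, and from 221 and 865 to 546 and 283 in AT3-gcsf over naive. Of ratios between libraries followed for single members under all alternatives, 237 stayed close or stayed past 2-fold. Of ratios under 2-fold as reported, 44 passed it in the same direction and 102 moved otherwise, some across 0. The 102 include Ppp1r15a in AT3 over naive (0.13 as reported), at -3.38 without AT3 MHTO8, past 2-fold the other way. Without naive MHTO5, Hspa5 and Dnaja1 turned to 0.42 and 0.64 in AT3 over naive. Of ratios past 2-fold as reported, 14 fell short of it and 2 reversed. Of ratios to the next population, 160 stayed past 2-fold and 8 fell short. Changing the minimum cannot move the ratio of a single member, so those settings were bound to count among the 237 and the 160. Of class medians, 94 stayed close and 77 moved. Where no cause is named, the cause was not tested. No paired analysis was possible because each condition is 1 library and the labels do not say whether equal tag numbers mark matched samples. Counting error is small for members over 20 CPM, and levels near 1 CPM rest on few UMIs.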

Other observations

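A few cells carried the markers of early granule formation, with primary granule genes such as Elane and Mpo at 0.5% of UMIs or more: 5 in naive, 1 in AT3 and 6 in AT3-gcsf, of which 1, 0 and 3 were among the cells compared. They were deep, with a median of 42189, 73345 and 53070 UMIs. Summed over these cells, ER chaperone levels were above those of the compared cells without them, although the 1 such cell compared in naive had 69.6 CPM of Hspa5. Hspa5 was at 668, 1336 and 1650 CPM against 218, 148 and 115. Sdf2l1, a partner of ER J-proteins, was at 456, 654 and 860 CPM against 1.03, 1.17 and 2.08, and Manf at 355, 654 and 1198 against 10.8, 11.2 and 12.97. The mitochondrial Hspd1 was at 405, 1322 and 640 CPM against 9.54, 5.01 and 7.94. Ppp1r15a was lower in the marker cells than in the sums of the compared cells, at 13.8, 0 and 3.19 CPM against 129, 141 and 56.3. Those sums are set by naive MHTO5, AT3 MHTO8 and AT3-gcsf MHTO5, and the other populations were at 3.15 to 28.0 CPM. A low level particular to the marker cells was thus not shown. Ddit3 was at 0, 13.6 and 0 CPM against 66.3, 47.9 and 31.2, but its AT3 interval (0.345 to 76.0) contained the compared level. Dnajb1 was at 13.8, 0 and 25.5 CPM against 27.2, 33.0 and 31.8. Its naive and AT3 intervals (2.85 to 40.4 and 0 to 50.3) contained the compared levels too. Chac1, Trib3, Hspa1a and Hspa1b had 0 UMIs in naive and AT3. Their intervals reached 17.0 and 50.3 CPM, above the compared levels, so a lower level was not shown. With so few cells, these are values of those cells only.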
